A study of Mus musculus with 20 samples.

Results

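Extracellular matrix and fibroblast genes were followed in the hearts of MuRF1 knockout mice (MuRF1 -/-) and of mice with the gene (MuRF1 +/+), fed fenofibrate or chow. The set held 45 genes, listed by name for their place in the matrix or in the cells that make it, and every one was found by the gene name of its probes, 44 under the current name and Ccn2 under its older name Ctgf. These were 45 of the 27670 names on the array and 45 of the 14567 genes that could be tested. The list was drawn up with earlier results of these data known, so it was not blind to these hearts.

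MuRF1, encoded by Trim63, is a muscle ubiquitin ligase, and fenofibrate lowers blood lipids by acting on PPAR alpha, a nuclear receptor. The 6 groups were MuRF1 -/- hearts after 8 weeks of chow (3 arrays), after 3 weeks of chow with 0.05% w/w fenofibrate (4 arrays) and after 8 weeks of it (3 arrays), and MuRF1 +/+ hearts after 8 weeks of chow (3 arrays), 3 weeks of fenofibrate (4 arrays) and 8 weeks of fenofibrate (3 arrays). Each of the 20 arrays held RNA of 1 heart against a common pool of RNA from whole newborn C57BL/6 pups, so a level here is the log2 ratio of heart over that pool, and levels of different genes cannot be set against each other. No 3-week chow group was among the samples, so in the 3-week comparisons with chow the time on the diet differed along with the drug and cannot be told apart from it. The knockout is labelled as a whole-animal genotype with no cell type or promoter named, and strain and sex of the hearts' donors were not given, beyond a note in the series' design text of strain-matched mice aged 3 to 8 weeks.

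The matrix of the heart is a mesh of fibrillar collagens, a basement membrane around each myocyte and vessel, and elastic fibres, glycoproteins and proteoglycans that link them. Fibroblasts make most of the fibrillar collagen, while vessel cells and myocytes add to the basement membrane. Transforming growth factor beta is stored in the matrix in latent form and raises collagen output when released, and metalloproteases and their TIMP inhibitors set how fast the mesh is turned over.

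The labels were checked first. Trim63 lay between -1.19 and -0.49 on the 10 MuRF1 -/- arrays and between 0.79 and 2.85 on the 10 MuRF1 +/+ arrays, with no overlap, and its lowest MuRF1 +/+ value came from 8-week replicate 2. Of 10 cardiomyocyte markers, 9 or 10 were well above background on every array of each group, as the heart label requires. Between 34.0% and 51.9% of heart probes per array were well above background. The transcripts of 2 Y-linked genes were both above background in 3 of 3 MuRF1 -/- hearts on chow, 0 of 4 after 3 weeks and 2 of 3 after 8 weeks, and in 3 of 3 MuRF1 +/+ hearts on chow, 0 of 4 after 3 weeks and 0 of 3 after 8 weeks. These transcripts thus moved with diet in every comparison of fenofibrate with chow (in part only at 8 weeks in MuRF1 -/-), between 8 and 3 weeks in MuRF1 -/-, and between the genotypes at 8 weeks, and in those a difference by sex cannot be told apart. The Y-linked transcripts were not called between 8 and 3 weeks in MuRF1 +/+ or between the genotypes on chow and at 3 weeks. Xist, the transcript that silences an X chromosome in females, was called higher at 3 weeks than on chow in MuRF1 -/- (3.86) and MuRF1 +/+ (3.76). At 8 weeks it was called higher than on chow in MuRF1 +/+ (2.17) and not in MuRF1 -/- (0.42). It was called lower at 8 than at 3 weeks in MuRF1 -/- (-3.44) and in MuRF1 +/+ (-1.59), so a difference by sex was not settled for that MuRF1 +/+ comparison either. MuRF1 +/+ 8-week replicate 2 and MuRF1 -/- 3-week replicate 4 stood apart from the other arrays, and results that rest on them are given with and without them. They also had the lowest shares of heart probes above background (34.0% and 34.3%) and the smallest SDs of the log ratio (0.53 and 0.51). The part of array or RNA quality in their values was not tested.

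On MuRF1 +/+ chow arrays 43 of the 45 genes lay below the newborn pool, down to -5.93 for Col1a1, and 2 lay above it, with Tgfb1 at 0.32. Of the 45 genes, 40 were well above background on all 20 arrays. The other 5 were measured as present on fewer arrays, namely Tgfb1 on 19, Col5a2 on 16, Mfap5 on 13, Lox on 6 and Thbs1 on 3, and their differences are compressed towards 0 by the background. Outlier spots left Col1a2, Dcn, Fbln5 and Lox without a value on MuRF1 -/- 8-week replicate 3, so each of these genes has n = 2 in that group.

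The promoters of 4 genes are shown because their genes part ways in the results below. Col4a1 and Col4a2 share 1 head-to-head promoter yet differed in their calls on the main probes, Col3a1 had the largest fall between 3 and 8 weeks, and Tgfb1 was the member called lower where the others called were higher. Each window runs from 250 bases before to 50 bases after the start (RefSeq, GRCm38.p6). Capitals mark GGGCGG, the Sp1 box, or its complement CCGCCC in Col4a1, Col4a2 and Tgfb1, and GGAATG, the TEAD motif, or its complement CATTCC in Col3a1. The places are chr8:11312777-11313076 on the minus strand for Col4a1, chr8:11312555-11312854 on the plus strand for Col4a2, chr1:45311288-45311587 on the plus strand for Col3a1 and chr7:25686752-25687051 on the plus strand for Tgfb1.
Col4a1: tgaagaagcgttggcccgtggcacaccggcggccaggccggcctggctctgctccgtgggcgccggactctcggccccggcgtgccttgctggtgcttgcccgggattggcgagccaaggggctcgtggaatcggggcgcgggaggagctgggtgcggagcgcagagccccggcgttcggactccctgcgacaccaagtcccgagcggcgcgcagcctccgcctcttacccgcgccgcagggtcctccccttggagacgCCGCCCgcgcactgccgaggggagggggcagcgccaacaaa
Col4a2: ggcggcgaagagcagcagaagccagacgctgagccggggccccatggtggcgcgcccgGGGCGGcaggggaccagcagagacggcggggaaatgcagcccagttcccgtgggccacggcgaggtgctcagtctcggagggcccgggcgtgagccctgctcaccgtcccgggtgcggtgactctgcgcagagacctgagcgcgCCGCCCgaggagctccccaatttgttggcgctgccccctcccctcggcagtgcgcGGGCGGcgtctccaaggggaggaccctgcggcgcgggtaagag
Col3a1: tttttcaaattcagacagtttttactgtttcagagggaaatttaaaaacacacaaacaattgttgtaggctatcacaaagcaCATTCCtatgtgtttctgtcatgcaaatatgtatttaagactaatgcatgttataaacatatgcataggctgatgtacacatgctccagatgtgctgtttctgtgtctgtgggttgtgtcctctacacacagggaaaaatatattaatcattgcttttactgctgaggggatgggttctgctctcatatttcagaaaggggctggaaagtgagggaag
Tgfb1: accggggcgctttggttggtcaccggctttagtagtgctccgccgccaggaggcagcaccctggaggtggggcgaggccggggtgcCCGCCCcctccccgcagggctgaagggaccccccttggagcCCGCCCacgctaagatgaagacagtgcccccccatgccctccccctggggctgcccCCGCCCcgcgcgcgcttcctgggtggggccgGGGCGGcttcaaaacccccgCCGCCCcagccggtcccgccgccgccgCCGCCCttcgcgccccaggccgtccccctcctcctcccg

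The starts of Col4a1 and Col4a2 lay 21 bases apart on opposite strands, and their windows overlapped by 78 bases, so one Sp1 match is counted in both. Col4a2 held 3 matches and Col4a1 1, while Tgfb1 held 6, with first bases from position -164 to position 12 relative to its start. The Col3a1 window was poor in G and C (37.7%, against 74.0% for Col4a1, 73.7% for Col4a2 and 77.0% for Tgfb1), and its TEAD match began at position -168. Windows were at hand for 28 of the 45 genes, 33 windows in all, and GGGCGG on either strand was in 20 of them (60.6%), against 35.7% of all 32851 windows. GGAATG was in 15.2% of the members' windows and 14.7% of all, and the AP-1 motif TGANTCA in 3.03% and 7.81%. The SMAD palindrome GTCTAGAC, the cyclic AMP element TGACGTCA and the DR1 site of PPAR with RXR were in 0 of the 33 windows, against 0.213%, 1.79% and 0.0396% of all windows. Of the 10 genes called in both genotypes at 3 weeks (below), 8 had a window, 4 of these with GGGCGG (Col4a1, Fbn1, Nid1 and Tgfb1) and 2 with GGAATG (Col3a1 and Nid1). These are matches of letters only, and binding was not measured.

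**Figure D1:**
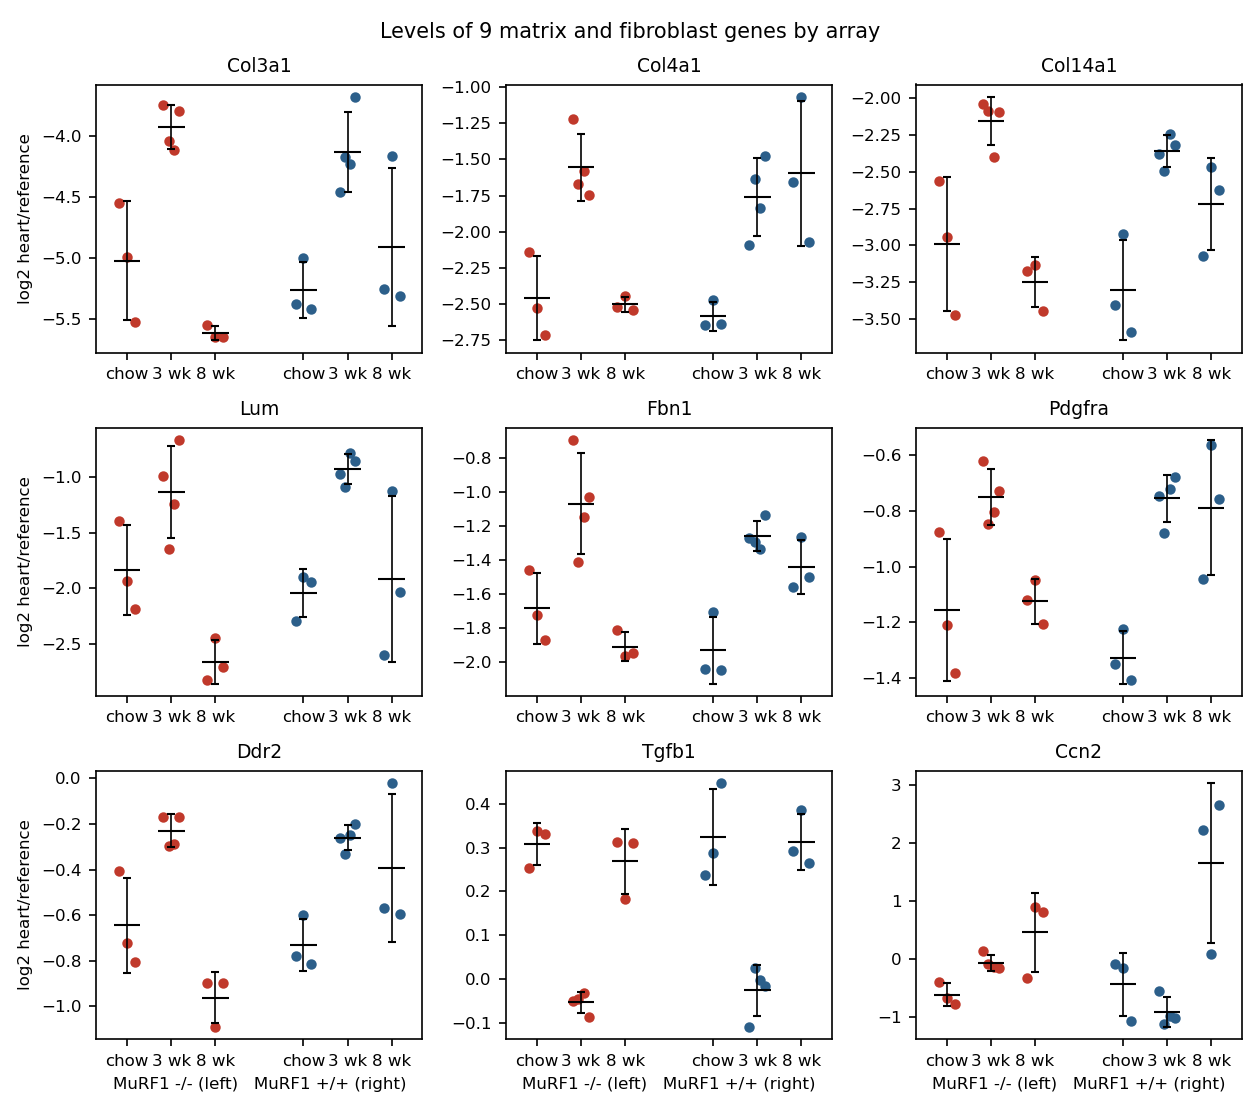
Log2 ratio of heart over the newborn pool (vertical axes, 1 point per array) for 9 genes in the 6 groups, with MuRF1 -/- in red on the left and MuRF1 +/+ in blue on the right, and bars for the mean and SD. Col3a1, Col4a1, Col14a1, Lum, Fbn1, Pdgfra and Ddr2 averaged higher at 3 weeks than on chow in both genotypes, Tgfb1 averaged lower, and at 8 weeks the 3 MuRF1 -/- hearts lay close together while MuRF1 +/+ replicate 2 stood high for most of these genes.

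After 3 weeks of fenofibrate a set of collagens, basement membrane genes and fibroblast receptors rose in both genotypes, and Tgfb1 fell in both. In MuRF1 -/- hearts 13 of the 45 genes rose and 1 fell, and in MuRF1 +/+ hearts 11 rose and 1 fell. Over all tested genes 14.4% rose and 12.1% fell in MuRF1 -/-, and 12% rose and 12.3% fell in MuRF1 +/+ (limma, adjusted p under 0.05). In MuRF1 +/+ 20 members had an unadjusted p under 0.05, where 36.3% of all genes did, and in 20 every 3-week heart lay above and in 2 below every chow heart, where 23.4% and 21.9% of all genes did. In MuRF1 -/- 15 lay above and 1 below, where 17.3% and 14.7% of all genes did. The median difference of the 45 genes was 0.25 in MuRF1 -/- and 0.26 in MuRF1 +/+. Col3a1, Col4a1, Col6a3, Col14a1, Fbn1, Lamc1, Nid1, Ddr2 and Pdgfra rose and Tgfb1 fell in both, which makes 10 genes out of 14 called in MuRF1 -/- and 12 called in MuRF1 +/+. These comparisons share no array, and 0 members were called in opposite directions. The share of all tested genes called in both genotypes was not computed, so this overlap cannot be read as particular to the members. Without MuRF1 -/- chow replicate 3 the MuRF1 -/- calls were 8 in place of 14. Only the MuRF1 -/- calls of Col3a1 and Tgfb1 held under every alternative setting and every left-out array. Those of Col6a3, Col14a1, Fbn1, Pdgfra and Ddr2 were lost on the authors' deposited table, among other settings. In MuRF1 +/+ the calls of Col3a1, Col6a3, Col14a1, Fbn1, Lum, Pdgfra and Tgfb1 held throughout. The difference between the genotypes' 3-week responses was called for 0 of the 45 genes by limma (2 at an unadjusted p under 0.05, against 2.42% of all genes; median -0.10).

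Among the fibrillar collagens, Col3a1, the pliable collagen of vessels and young scar, was the one that rose. Col3a1 had levels of -3.75, -4.04, -4.11 and -3.80 in MuRF1 -/- hearts after 3 weeks of fenofibrate, against -4.55, -5.00 and -5.53 on chow. In MuRF1 +/+ hearts it had -4.46, -4.17, -4.23 and -3.68 after 3 weeks, against -5.38, -5.01 and -5.42 on chow. Neither pair of groups overlapped, and the rise was 2.14-fold in MuRF1 -/- (log2 1.10 ± 0.25 SE, adjusted p = 0.00376) and 2.19-fold in MuRF1 +/+ (1.13 ± 0.25, adjusted p = 0.00336). Within the 3 slides (arrays sharing a scan time) that held both groups in MuRF1 -/- the difference was 1.41, 0.80 and 0.96, and within the 2 such slides in MuRF1 +/+ it was 0.92 and 0.83. A second, dim Col3a1 probe, above background on only 3 arrays, gave -0.02 in MuRF1 -/- and 0.07 in MuRF1 +/+. The stiffer type I collagen did not pass. Col1a1 had -5.60, -5.69, -5.65 and -4.39 in MuRF1 -/- hearts after 3 weeks, against -5.30, -5.69 and -5.76 on chow, and -5.91, -5.55, -5.43 and -5.22 in MuRF1 +/+ hearts after 3 weeks, against -5.94, -5.88 and -5.98 on chow. The high MuRF1 -/- value was replicate 4, and the differences were 0.25 ± 0.33 (adjusted p = 0.617) and 0.40 ± 0.33 (adjusted p = 0.405). Col1a2, Col5a1 and Col5a2 differed by 0.13 to 0.41 without a call.

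Of the 6 basement membrane genes, Col4a1, Lamc1 and Nid1 rose in both genotypes, and Col4a2, Col15a1 and Col18a1 did not pass in either on their main probes. Col4a1, the collagen of the basement membrane sheet, had -1.22, -1.67, -1.58 and -1.75 in MuRF1 -/- hearts after 3 weeks, against -2.14, -2.53 and -2.71 on chow, and -2.10, -1.63, -1.83 and -1.47 in MuRF1 +/+ hearts after 3 weeks, against -2.65, -2.47 and -2.64 on chow. The groups did not overlap, and Col4a1 rose by 0.91 ± 0.20 in MuRF1 -/- (adjusted p = 0.00242) and by 0.83 ± 0.20 in MuRF1 +/+ (adjusted p = 0.00509). A second Col4a1 probe, above background on all 20 arrays, gave -0.01 ± 0.16 in MuRF1 -/- and -0.06 ± 0.16 in MuRF1 +/+, and with the mean of the gene's probes neither call held (adjusted p = 0.0601 and 0.111). Col4a2, the partner chain read from the shared promoter shown above, differed by -0.05 ± 0.14 in MuRF1 -/- (adjusted p = 0.845) and -0.07 ± 0.14 in MuRF1 +/+ (adjusted p = 0.777). A second Col4a2 probe, above background on all 20 arrays, was called lower in both, by -0.41 ± 0.11 in MuRF1 -/- (adjusted p = 0.0128) and -0.38 ± 0.11 in MuRF1 +/+ (adjusted p = 0.0193). So of the 4 probes of this head-to-head pair, 1 was called higher and 1 lower at 3 weeks. Lamc1, the gamma chain found in most laminins, had -0.44, -0.59, -0.61 and -0.93 in MuRF1 -/- hearts after 3 weeks, against -0.99, -1.19 and -1.32 on chow, and -0.73, -0.83, -0.93 and -0.53 in MuRF1 +/+ hearts after 3 weeks, against -1.16, -1.09 and -1.19 on chow. It was higher without overlap in both, by 0.52 ± 0.14 (adjusted p = 0.011) and by 0.40 ± 0.14 (adjusted p = 0.0492), the second just inside the threshold and lost in 7 of 12 alternative settings and with 6 of 7 single arrays left out. Nid1, nidogen, which links laminin to type IV collagen, rose by 0.69 ± 0.22 and 0.78 ± 0.22.

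The beaded and fibril-associated collagens split. Col6a3, a chain of the microfibril collagen VI, had -3.61, -3.73, -3.66 and -3.14 in MuRF1 -/- hearts after 3 weeks, against -3.78, -4.15 and -4.62 on chow, a rise of 0.65 ± 0.19 (adjusted p = 0.0184). In MuRF1 +/+ hearts Col6a3 had -3.91, -3.58, -3.64 and -3.30 after 3 weeks, against -4.61, -4.24 and -4.57 on chow, a rise of 0.87 ± 0.19 (adjusted p = 0.00333). Its partner chains Col6a1 and Col6a2 did not pass (-0.16 to 0.16 over both genotypes). Col14a1, which decorates fibrils, had -2.04, -2.09, -2.40 and -2.09 in MuRF1 -/- hearts after 3 weeks, against -2.56, -2.94 and -3.47 on chow, and -2.38, -2.50, -2.24 and -2.32 in MuRF1 +/+ hearts after 3 weeks, against -3.40, -2.93 and -3.59 on chow. It rose 1.79-fold (0.84 ± 0.19, adjusted p = 0.00337) and 1.93-fold (0.95 ± 0.19, adjusted p = 0.0015), and the groups did not overlap. Col8a1, a vessel wall collagen, did not pass.

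Fbn1, fibrillin, the backbone of the microfibril, had -0.69, -1.41, -1.15 and -1.03 in MuRF1 -/- hearts after 3 weeks, against -1.46, -1.72 and -1.87 on chow. In MuRF1 +/+ hearts Fbn1 had -1.27, -1.30, -1.33 and -1.14 after 3 weeks, against -2.04, -1.70 and -2.05 on chow. It rose by 0.61 ± 0.14 (adjusted p = 0.00367) and 0.67 ± 0.14 (adjusted p = 0.00206). A second Fbn1 probe went the same way without a call (0.06 and 0.29). The elastic fibre genes Eln, Fbln5, Mfap4 and Mfap5 lay between -0.01 and 0.32 and did not pass. Lum, lumican, a small proteoglycan that spaces collagen fibrils, had -0.99, -1.65, -1.25 and -0.67 in MuRF1 -/- hearts after 3 weeks, against -1.40, -1.93 and -2.19 on chow, and -0.98, -1.09, -0.78 and -0.86 in MuRF1 +/+ hearts after 3 weeks, against -2.30, -1.90 and -1.94 on chow. The first pair overlapped (0.70 ± 0.27, adjusted p = 0.0644), while Lum rose 2.17-fold in MuRF1 +/+ (1.12 ± 0.27, adjusted p = 0.00614). Postn, periostin, a product of activated fibroblasts, had -3.61, -4.18, -4.23 and -3.75 in MuRF1 -/- hearts after 3 weeks, against -4.33, -4.55 and -5.00 on chow, and -4.27, -4.32, -4.14 and -3.97 in MuRF1 +/+ hearts after 3 weeks, against -4.63, -4.53 and -4.60 on chow. Both pairs were free of overlap, and the rise passed in MuRF1 -/- (0.68 ± 0.19, adjusted p = 0.0113) and not in MuRF1 +/+ (0.41 ± 0.19, adjusted p = 0.115). The difference between these responses was 0.27 ± 0.26 (adjusted p = 1.00), so no difference between the genotypes was shown.

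The fibroblast receptors Pdgfra and Ddr2 rose in both genotypes, as the collagen genes Col3a1, Col4a1, Col6a3 and Col14a1 did. Pdgfra, the growth factor receptor used to identify heart fibroblasts, had -0.62, -0.85, -0.80 and -0.73 in MuRF1 -/- hearts after 3 weeks, against -0.88, -1.21 and -1.38 on chow, and -0.75, -0.88, -0.72 and -0.68 in MuRF1 +/+ hearts after 3 weeks, against -1.35, -1.22 and -1.41 on chow. Pdgfra rose by 0.40 ± 0.12 (adjusted p = 0.0161) and 0.57 ± 0.12 (adjusted p = 0.00185). Ddr2, a receptor that senses fibrillar collagen, had -0.17, -0.29, -0.29 and -0.17 in MuRF1 -/- hearts after 3 weeks, against -0.41, -0.72 and -0.81 on chow. In MuRF1 +/+ hearts Ddr2 had -0.26, -0.33, -0.25 and -0.20 after 3 weeks, against -0.78, -0.60 and -0.81 on chow. It rose by 0.42 ± 0.12 and 0.47 ± 0.12 (adjusted p = 0.0185 and 0.00983), while a second, dim Ddr2 probe gave -0.15 and 0.01. Pdgfrb, the receptor of pericytes and fibroblasts, had 0.46, 0.22, 0.52 and 0.73 in MuRF1 -/- hearts after 3 weeks, against 0.14, -0.22 and -0.07 on chow (0.53 ± 0.19, adjusted p = 0.0426), and 0.18, 0.46, 0.12 and 0.51 in MuRF1 +/+ hearts after 3 weeks, against -0.17, -0.23 and -0.21 on chow (0.52 ± 0.19, adjusted p = 0.0501). The sizes were alike, and the threshold fell between them. Vim, the intermediate filament of mesenchymal cells, had -2.19, -2.59, -2.90 and -2.22 in MuRF1 -/- hearts after 3 weeks, against -3.16, -3.54 and -3.90 on chow (1.06 ± 0.27, adjusted p = 0.00818), and -2.85, -3.11, -3.03 and -2.65 in MuRF1 +/+ hearts after 3 weeks, against -3.57, -3.46 and -3.58 on chow (0.63 ± 0.27, adjusted p = 0.104).

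Tgfb1 was the member that went the other way. Its levels were -0.05, -0.05, -0.03 and -0.09 in MuRF1 -/- hearts after 3 weeks, against 0.25, 0.34 and 0.33 on chow, and -0.11, 0.02, 0.00 and -0.02 in MuRF1 +/+ hearts after 3 weeks, against 0.24, 0.29 and 0.45 on chow. The fall was 1.29-fold in MuRF1 -/- (-0.36 ± 0.06, adjusted p = 0.000287) and 1.27-fold in MuRF1 +/+ (-0.35 ± 0.06, adjusted p = 0.000446). The probe is dim, and the size depends on how background is removed: under the 12 alternative settings and with single arrays left out the difference ran from -1.43 to -0.26 in MuRF1 -/- and from -1.13 to -0.28 in MuRF1 +/+, with the call kept in each. Tgfb2 rose in MuRF1 +/+ (0.47 ± 0.16, adjusted p = 0.0372, lost in 5 of 12 settings and with 6 of 7 single arrays left out), and Tgfb3 did not pass in either. Of the metalloproteases and inhibitors, Timp3, the inhibitor that binds to the matrix, rose in MuRF1 -/- by 0.88 ± 0.25 (adjusted p = 0.0143) and differed by 0.04 ± 0.25 in MuRF1 +/+. The difference between those responses, 0.85 ± 0.36, did not pass (adjusted p = 1.00). Timp1 and Fn1 differed by -0.02 to 0.12 with no call, and Bgn, Loxl1, Mmp2, Thbs1, Tnc and the other members not named passed in neither genotype.

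**Figure D2:**
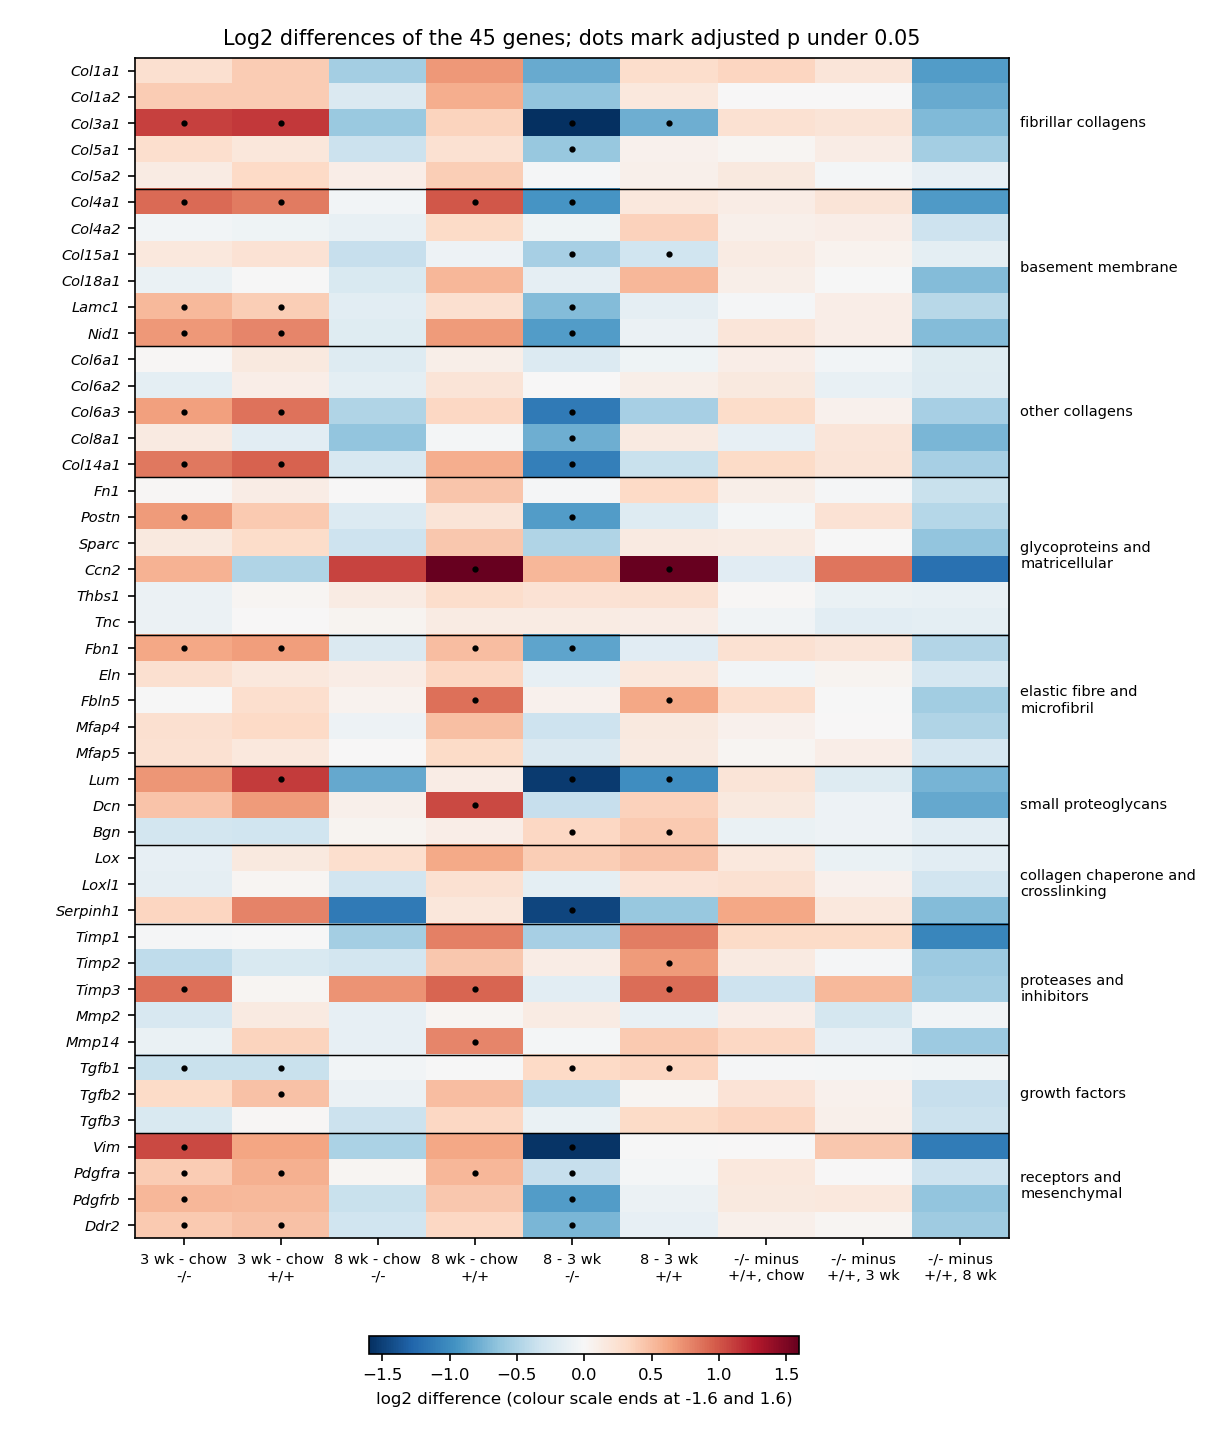
Log2 difference of each of the 45 genes (rows, by role) in 9 comparisons (columns), red for higher and blue for lower in the first-named group, with a dot where limma's adjusted p was under 0.05. Dots for rises crowd both 3-week columns, dots for falls crowd the 8-week minus 3-week column of MuRF1 -/-, and the last column, MuRF1 -/- minus MuRF1 +/+ at 8 weeks, is blue in all 45 rows with no dot.

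Between 3 and 8 weeks of fenofibrate the rise was lost in MuRF1 -/- hearts for most of these genes. Against chow the 8-week median of the 45 genes was -0.20, with 32 differences below 0 and 0 called by limma (1.83% of all genes were). Of the 45 genes 17 fell and 2 rose at 8 weeks against 3 weeks, where 18% of all tested genes fell and 13.5% rose, and the median difference was -0.37. In MuRF1 +/+ hearts 3 fell and 6 rose, where 9.69% of all genes fell and 7.91% rose, and the median was 0.14, with 29 differences above 0 and 16 below. That sign rested on 1 heart: without 8-week replicate 2 the median was -0.10, with 20 above 0 and 25 below. Without MuRF1 -/- 3-week replicate 4 the MuRF1 -/- median was -0.27, with 21 calls. In MuRF1 -/- Col3a1 had -5.55, -5.65 and -5.65 after 8 weeks, against the 3-week values given above, a 3.23-fold fall (-1.69 ± 0.25, adjusted p = 8.73e-05). The second, dim Col3a1 probe gave -0.01. Vim had -4.19, -3.95 and -3.98 after 8 weeks and fell 2.96-fold (-1.57 ± 0.27, adjusted p = 0.000356). Lum, at -2.83, -2.45 and -2.71 after 8 weeks, fell 2.88-fold (-1.53 ± 0.27, adjusted p = 0.000433). None of these 8-week groups overlapped with the 3-week group of the same genotype.

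The falls in MuRF1 -/- reached across the roles. Col6a3 (-4.61, -4.65 and -4.75 after 8 weeks) fell 2.20-fold and Col14a1 (-3.18, -3.13 and -3.45) 2.14-fold. Col4a1 (-2.52, -2.45 and -2.54) fell by 0.95 ± 0.20 on the log2 scale, with -0.15 ± 0.16 on its second probe. All 4 receptor and mesenchymal genes fell, with Ddr2 at -0.90, -1.09 and -0.90 after 8 weeks (-0.73 ± 0.12, adjusted p = 0.000269), Pdgfrb at -0.54, -0.18 and -0.51 (-0.89 ± 0.19, adjusted p = 0.00152) and Pdgfra at -1.12, -1.05 and -1.21 (-0.37 ± 0.12, adjusted p = 0.021). Fbn1 (-1.81, -1.97 and -1.95) fell by 0.84 ± 0.14, Postn (-4.81, -4.92 and -4.80) by 0.90 ± 0.19 and Lamc1 (-1.46, -1.31 and -1.24) by 0.70 ± 0.14. The second Fbn1 probe gave -0.11 without a call. Col15a1, a collagen of vessel and muscle basement membranes, had -0.16, -0.15 and 0.01 after 8 weeks, against 0.43, 0.26, 0.53 and 0.51 after 3 weeks (-0.53 ± 0.10, adjusted p = 0.000972). Serpinh1, the collagen chaperone, Nid1, Col5a1 and Col8a1 also fell (-1.47 to -0.60). The second Col8a1 probe was called lower too, while the second probes of Ddr2 and Col5a1, both dim, had the opposite sign (0.06 and 0.18). Sparc, a collagen-binding glycoprotein, just missed on its main probe (-0.48 ± 0.18, adjusted p = 0.0504) and fell on its other probe (-1.31 ± 0.25, adjusted p = 0.000748). The 2 rises were Tgfb1, at 0.31, 0.18 and 0.31 after 8 weeks (0.32 ± 0.06, adjusted p = 0.000597), and Bgn, biglycan (0.33 ± 0.12, adjusted p = 0.0434).

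In MuRF1 +/+ hearts the 8-week levels were spread more widely, and 3 members were called lower than at 3 weeks. Without replicate 2 the 9 calls were those of Ccn2, Col15a1, Col3a1, Col6a3, Ddr2, Lum, Nid1, Serpinh1 and Tgfb1, so Col6a3, Ddr2, Nid1 and Serpinh1 were added and Timp2, Timp3, Fbln5 and Bgn were lost. Col3a1 had -5.26, -4.17 and -5.32 after 8 weeks and fell by 0.78 ± 0.25 (adjusted p = 0.0399), and Lum, with -2.61, -1.13 and -2.04, fell by 1.00 ± 0.27 (adjusted p = 0.0167). The dim Col3a1 probe gave -0.01 here as well. Col15a1, with -0.14, 0.31 and 0.00 after 8 weeks against 0.22, 0.53, 0.30 and 0.45 after 3 weeks, fell by 0.32 ± 0.10 (adjusted p = 0.044). Tgfb1, at 0.29, 0.39 and 0.26, rose by 0.34 ± 0.06 (adjusted p = 0.000844). Timp2, Timp3, Fbln5 and Bgn rose (0.42 to 0.90), as did Ccn2, described below. Of these 9 calls, those of Tgfb1 and Ccn2 held under every alternative setting and every left-out array, and in MuRF1 -/- 15 of the 19 calls did so. Over all comparisons 26 of 62 calls did. The 3-week group enters these comparisons as well as those with chow, so the rise and the fall are not independent of each other.

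**Figure D3:**
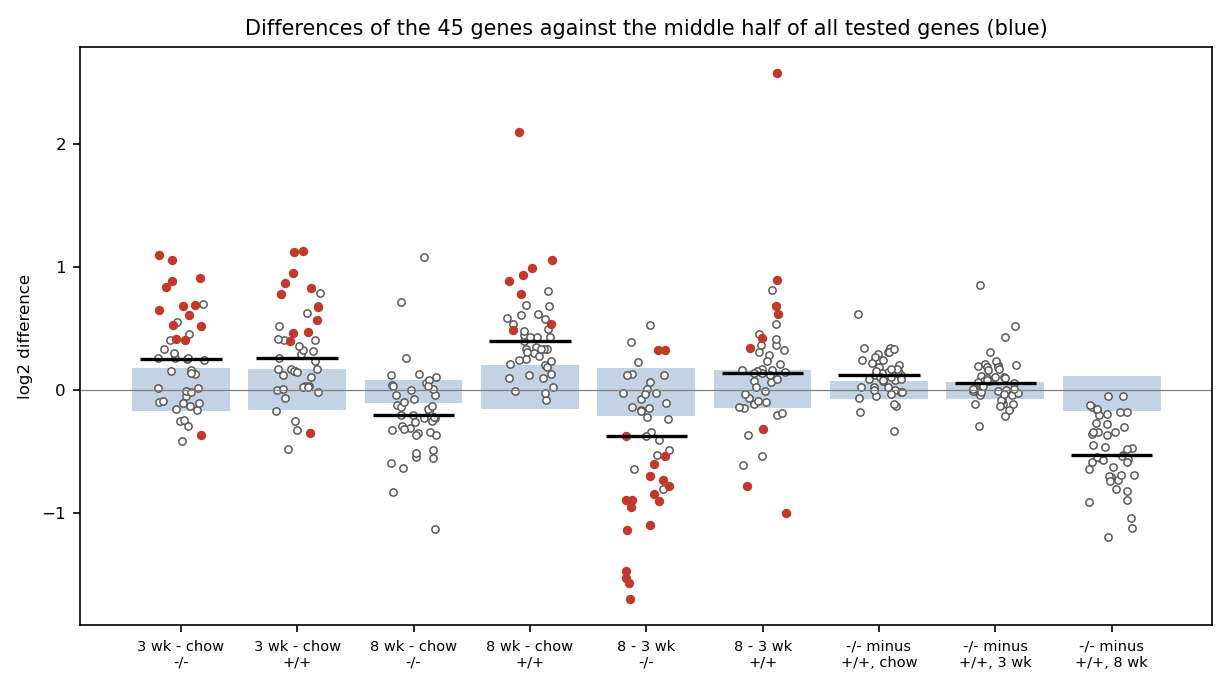
Log2 differences of the 45 genes (circles, filled red where called by limma) in 9 comparisons, with the members' median as a black line and the interquartile range of all tested genes as a blue band. The members' median lies above the band at 3 weeks in both genotypes (0.25 and 0.26), at 8 weeks in MuRF1 +/+ (0.40) and for genotype on chow (0.13), and below it at 8 weeks in MuRF1 -/- (-0.20), for 8 minus 3 weeks in MuRF1 -/- (-0.37) and for MuRF1 -/- minus MuRF1 +/+ at 8 weeks (-0.53).

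After 8 weeks of fenofibrate the 45 genes were not called in MuRF1 -/- hearts against chow, and 8 of them rose in MuRF1 +/+ hearts. In MuRF1 -/- 0 of 45 passed by limma (1.83% of all genes did, 0.858% higher and 0.975% lower), with 11 at an unadjusted p under 0.05 where 12.7% of all genes were, 32 differences below 0 and a median of -0.20. In MuRF1 +/+ 8 rose and 0 fell, where 5.22% of all tested genes rose and 8.76% fell, 42 differences lay above 0 and the median was 0.40. The 8 were Col4a1, Fbn1, Fbln5, Dcn, Timp3, Mmp14, Ccn2 and Pdgfra, which belong to 6 of the 10 roles in the set. The Fbn1 call was the least steady of them, lost in 8 of 12 settings and with 4 of 6 single arrays left out. In 20 of the 45 genes the MuRF1 +/+ 8-week and chow groups did not overlap, all higher, where 13.4% of all genes were so. In MuRF1 -/- 12 of the 45 lay wholly below chow and 3 wholly above, where 14% and 10.8% of all genes did.

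Ccn2, the connective tissue growth factor, a matricellular target of YAP with TEAD and of transforming growth factor beta, had the largest difference among the 45 genes. Ccn2 had -0.32, 0.91 and 0.82 in MuRF1 -/- hearts after 8 weeks, against -0.39, -0.66 and -0.77 on chow, and 2.24, 0.09 and 2.66 in MuRF1 +/+ hearts after 8 weeks, against -0.08, -0.16 and -1.06 on chow. Neither pair overlapped. The difference was 1.08 ± 0.46 in MuRF1 -/- (adjusted p = 0.306), and Ccn2 rose 4.27-fold in MuRF1 +/+ (2.09 ± 0.46, adjusted p = 0.00635). At 3 weeks it had 0.14, -0.08, -0.14 and -0.16 in MuRF1 -/- and -0.54, -1.12, -0.98 and -1.01 in MuRF1 +/+, where 8 weeks exceeded 3 weeks 5.95-fold (2.57 ± 0.43, adjusted p = 0.000511). The MuRF1 +/+ heart lowest for Ccn2 at 8 weeks was replicate 2, the one highest for the collagens, so Ccn2 did not follow them from heart to heart. The call against chow was lost without chow replicate 3.

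Timp1, an inhibitor of metalloproteases often high in injured tissue, also varied between hearts in its own way. It had -0.83, -0.99 and -1.09 in MuRF1 -/- hearts after 8 weeks, against 0.11, -0.62 and -0.76 on chow (-0.55 ± 0.33, adjusted p = 0.574), and 1.09, -0.10 and -0.78 in MuRF1 +/+ hearts after 8 weeks, against -0.95, -0.43 and -0.82 on chow (0.81 ± 0.33, adjusted p = 0.106). The 1.09 belonged to replicate 1, which was the lowest MuRF1 +/+ 8-week heart for Col1a1. Fn1, fibronectin, had -2.40, -2.60 and -2.75 in MuRF1 -/- hearts after 8 weeks, against -2.39, -2.51 and -2.86 on chow (0.00 ± 0.18), and -2.52, -1.91 and -2.24 in MuRF1 +/+ hearts after 8 weeks, against -2.68, -2.52 and -2.81 on chow. The lowest MuRF1 +/+ 8-week value of Fn1 lay just above the highest chow value, and the difference of 0.45 ± 0.18 did not pass (adjusted p = 0.101).

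For most of the collagens the MuRF1 +/+ 8-week level rested on 1 heart. Col1a1 had -5.97, -6.18 and -6.24 in MuRF1 -/- hearts after 8 weeks, against -5.30, -5.69 and -5.76 on chow (-0.55 ± 0.35, adjusted p = 0.609), and -6.06, -4.27 and -5.39 in MuRF1 +/+ hearts after 8 weeks, against -5.94, -5.88 and -5.98 on chow (0.69 ± 0.35, adjusted p = 0.177). Its replicate 2 value was the highest on any of the 20 arrays. Col4a1, at -1.65, -1.07 and -2.07 in the MuRF1 +/+ 8-week hearts, was above all 3 chow hearts in each, with a difference of 0.99 ± 0.21 (adjusted p = 0.00529), and its second probe gave 0.51 ± 0.17 (adjusted p = 0.0528). Dcn, decorin, a small proteoglycan that binds collagen and transforming growth factor beta, rose by 1.06 ± 0.26 (adjusted p = 0.0146), with -0.05, 1.44 and 0.30 after 8 weeks against -0.46, -0.45 and -0.57 on chow. Fbln5, an elastic fibre assembly protein (0.88 ± 0.19), Timp3 (0.93 ± 0.27) and Mmp14, a membrane-bound collagenase (0.78 ± 0.18), rose as well. A second Mmp14 probe gave 0.26 and the second Fbn1 probe 0.20, neither of them called. Without replicate 2 the calls were 4 (Ccn2, Col4a1, Dcn and Fbln5) and the median 0.19, without replicate 1 they were 24 and 0.51, and without chow replicate 3 they were 2 (Col4a1 and Fbln5) and 0.34. On the slide that held replicate 2 and chow replicate 3 the members' median difference was 0.88 with 44 of 45 above 0, and on the slide that held replicate 1 and chow replicate 2 it was 0.0047 with 23 of 45 above 0. With only the 6 arrays of this comparison in the fit 0 members passed (14 at an unadjusted p under 0.05). For these refits the share of all tested genes called is not given, so the counts cannot set the members apart from other genes.

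At 8 weeks every one of the 45 genes averaged lower in MuRF1 -/- than in MuRF1 +/+ hearts, and 0 were called by limma. The median difference was -0.53, 30 of 45 had an unadjusted p under 0.05, where 21.8% of all tested genes did, and 0.0755% of all tested genes were called, 0.0412% higher and 0.0343% lower. In 25 of the 45 genes every MuRF1 -/- heart lay below every MuRF1 +/+ heart, where 9.97% of all tested genes did. The members with the smallest adjusted p, picked after their values were seen, were Col4a1 and Ddr2. Col4a1 had -2.52, -2.45 and -2.54 in MuRF1 -/- against -1.65, -1.07 and -2.07 in MuRF1 +/+ (-0.91 ± 0.21, adjusted p = 0.0697). Ddr2 had -0.90, -1.09 and -0.90 against -0.57, -0.02 and -0.60 in MuRF1 +/+ (-0.57 ± 0.13, adjusted p = 0.0697). Vim followed at -4.19, -3.95 and -3.98 against -3.42, -1.95 and -3.38 in MuRF1 +/+ (-1.12 ± 0.29, adjusted p = 0.085). Tgfb1 and Mmp2 differed least (-0.04 each).

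The size of this gap, but not its direction, depended on MuRF1 +/+ replicate 2. Without it the median was -0.26, the unadjusted count 9, and 1 gene was called (Ccn2), with all 45 genes still lower in MuRF1 -/-. Without MuRF1 +/+ replicate 1 the median was -0.59 and 23 genes were called lower, and without replicate 3 it was -0.54 with 4 called. The share of all tested genes called without these arrays is not given beside these counts. Within slides, replicate 3 of MuRF1 -/- lay below replicate 3 of MuRF1 +/+ in 38 of 41 genes (median -0.37), and replicate 1 below replicate 1 in 31 of 45 (median -0.13). Genotype gave 0 calls by limma on chow (median 0.13, 1 at an unadjusted p under 0.05 where 3.18% of all genes were, 0.0892% of all called, 0.0343% higher and 0.0549% lower) or at 3 weeks (median 0.056, 3 at an unadjusted p under 0.05 where 5.29% of all were, 0.398% called, 0.0412% of all genes lower). The test of the difference between the 8-week responses, which uses the chow groups as well, had 45 of 45 genes below 0, a median of -0.61, 23 at an unadjusted p under 0.05 (16.7% of all genes) and 0 called (0.00686% of all genes). Without MuRF1 +/+ 8-week replicate 2 it had 41 of 45 below 0, a median of -0.43 and 18 at an unadjusted p under 0.05.

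Other genes of matrix assembly and of the transforming growth factor beta pathway gave a mixed picture. Of 84 such genes outside the 45, 80 were tested. At 3 weeks 13 rose and 12 fell in MuRF1 -/-, where 14.4% and 12.1% of all genes did, and 13 rose and 8 fell in MuRF1 +/+, where 12% and 12.3% did, so these counts lay near the background. Lamb1, a laminin beta chain, rose in both (0.76 ± 0.11 and 0.73 ± 0.11), as did Tead1, a DNA-binding partner of YAP (0.48 ± 0.13 and 0.74 ± 0.13). Yap1 itself went the other way in MuRF1 +/+ (-0.45 ± 0.09, limma adjusted p = 0.00168) and was not called in MuRF1 -/-. Plod1, a lysyl hydroxylase of collagen, fell in both (-0.79 ± 0.10 in MuRF1 -/- and -0.76 ± 0.10 in MuRF1 +/+), and so did Mmp15, a membrane-bound metalloprotease (-0.68 ± 0.14 and -0.62 ± 0.14). Smad7, an inhibitor of transforming growth factor beta signalling, also fell in both (-0.33 ± 0.09 in MuRF1 -/- and -0.42 ± 0.09 in MuRF1 +/+), and Lamb2, a second laminin beta chain, fell by 0.82 ± 0.16 in MuRF1 -/-. At 8 weeks 0 rose and 2 fell in MuRF1 -/- against chow, namely Ogn, osteoglycin (-0.55 ± 0.13), and Pcolce, an enhancer of procollagen processing (-0.74 ± 0.18), while 10 rose and 4 fell in MuRF1 +/+ (0.858% and 0.975% of all genes in MuRF1 -/-, 5.22% and 8.76% in MuRF1 +/+). Itgb5, an integrin subunit, rose 1.92-fold there (0.94 ± 0.12, adjusted p = 0.000111), and Mgp, matrix Gla protein, 2.24-fold (1.16 ± 0.25, adjusted p = 0.00574). Between 3 and 8 weeks 21 fell and 8 rose in MuRF1 -/-, where 18% and 13.5% of all genes did, with the laminin chains Lama4 (-0.83 ± 0.13) and Lamb1 (-0.71 ± 0.11), Tead1 (-0.80 ± 0.13) and the crosslinking enzyme gene Loxl2 (-0.81 ± 0.14) lower and Plod1 higher (0.62 ± 0.10). In MuRF1 +/+ 5 fell and 13 rose, where 9.69% and 7.91% of all genes did. Between MuRF1 -/- and MuRF1 +/+ at 8 weeks the median of the 80 genes was -0.28, with 0 called by limma.

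**Figure D4:**
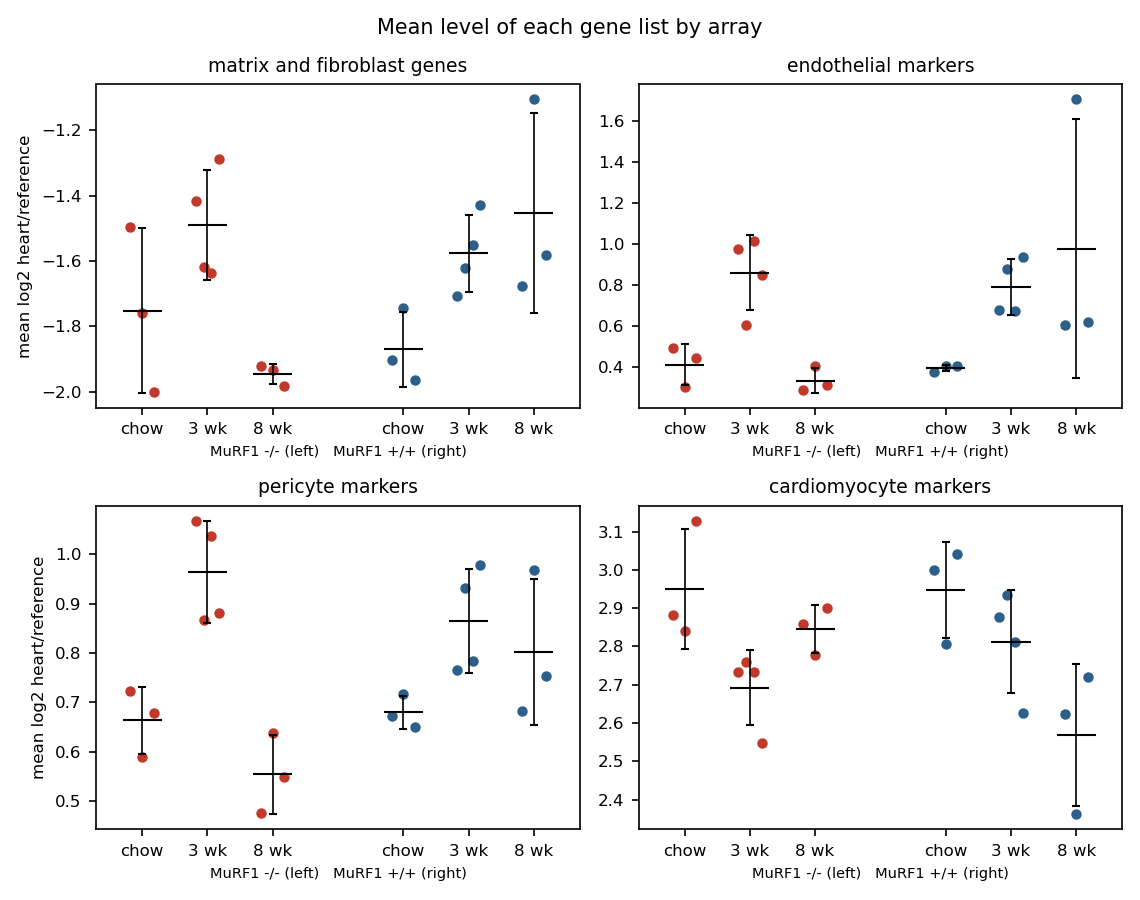
Mean log2 ratio of heart over the newborn pool per array (points, with the mean and SD of each group) for the members measured on all arrays and for markers of endothelial cells, pericytes and cardiomyocytes, MuRF1 -/- in red on the left and MuRF1 +/+ in blue on the right. The endothelial means, from 0.61 to 1.02 at 3 weeks against 0.30 to 0.50 on chow in MuRF1 -/-, were highest, at 1.71, on MuRF1 +/+ 8-week replicate 2, the array with the highest matrix mean and the lowest cardiomyocyte mean.

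In bulk heart RNA, more cells of a type and more RNA per cell cannot be told apart, and markers of other cells moved with these genes. Over the 41 members with a value on every array the mean level was -1.49 ± 0.17 after 3 weeks (SD, n = 4) against -1.75 ± 0.25 on chow (n = 3) in MuRF1 -/- hearts, and -1.58 ± 0.12 after 3 weeks (n = 4) against -1.87 ± 0.12 on chow (n = 3) in MuRF1 +/+ hearts. After 8 weeks it was -1.98 to -1.92 in MuRF1 -/- and -1.68, -1.10 and -1.58 in MuRF1 +/+. The mean of the 12 endothelial markers was 0.61 to 1.02 after 3 weeks against 0.30 to 0.50 on chow in MuRF1 -/- and 0.68 to 0.94 after 3 weeks against 0.38 to 0.41 on chow in MuRF1 +/+. At 8 weeks it was 0.29 to 0.40 in MuRF1 -/- and 0.61, 1.71 and 0.62 in MuRF1 +/+, with replicate 2 highest as it was for the matrix genes. Of the 12 markers 3 rose at 3 weeks in each genotype (14.4% of all genes in MuRF1 -/- and 12% in MuRF1 +/+), 0 at 8 weeks in MuRF1 -/- (0.858%) and 5 at 8 weeks in MuRF1 +/+ (5.22%). Summed heart signal of that list ran from 4971 to 5284 in MuRF1 -/- and from 6039 to 19400 in MuRF1 +/+ hearts after 8 weeks, and all 12 markers were above background on every array. The mean of the 5 pericyte markers was 0.48 to 0.64 in MuRF1 -/- and 0.68 to 0.97 in MuRF1 +/+ at 8 weeks. After 3 weeks it was 0.87 to 1.07 against 0.59 to 0.72 on chow in MuRF1 -/-. In MuRF1 +/+ it was 0.77 to 0.98 after 3 weeks against 0.65 to 0.72 on chow. The mean of the 6 smooth muscle markers was -1.40 to -1.20 in MuRF1 -/- and -1.08 to -0.17 in MuRF1 +/+ at 8 weeks, without overlap, with 0 called by limma (median difference -0.81). At 3 weeks that list went against the members in MuRF1 -/-, with a median of -0.45 and 2 of 6 markers lower than on chow, and 2 of 6 were lower in MuRF1 +/+ (median -0.14). Of the 10 fibroblast markers 5 are members, so that list is no separate measure. Cardiomyocyte markers with a value on every array averaged 2.78 to 2.90 in MuRF1 -/- and 2.36 to 2.72 in MuRF1 +/+ at 8 weeks, the lowest again on replicate 2. After 3 weeks they averaged 2.55 to 2.76 against 2.84 to 3.13 on chow in MuRF1 -/-, without overlap. In MuRF1 +/+ the 3-week and chow means overlapped (2.63 to 2.93 against 2.81 to 3.04). Macrophage markers averaged -0.34 to -0.11 in MuRF1 -/- and 0.03 to 0.06 in MuRF1 +/+ at 8 weeks, with no marker called between the genotypes. Atrial markers with a value on every array averaged -0.65 to -0.50 after 3 weeks against -1.52 to -1.22 on chow in MuRF1 +/+. In MuRF1 -/- they averaged -1.20 to 0.51 after 3 weeks against -1.51 to -1.23 on chow, highest on 3-week replicate 4 (0.51). Neither pair overlapped. Of 4 atrial markers tested, 1 was called higher at 3 weeks in each genotype, where 14.4% of all genes were in MuRF1 -/- and 12% in MuRF1 +/+. The part of these cell types, of sex and of the arrays that stood apart in the matrix differences was not tested. In MuRF1 -/- at 8 weeks, where replicate 2 lacked the Y-linked transcripts that replicates 1 and 3 had, the matrix means of the 3 hearts were -1.93 for replicate 2 and -1.92 and -1.98 for the others. Xist was -2.72 on replicate 2 and -3.51 and -4.05 on the others. With 1 such heart these values cannot decide whether sex had a part.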

How the data were processed

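Heart RNA was measured on 20 2-colour Agilent arrays, 3 or 4 per group, against a pool of newborn pup RNA, with the heart in the red channel on every array per the channel labels. The labels' protocol text names the other dye for the heart, and the high Trim63 ratio on MuRF1 +/+ arrays fits the channel labels. There was no dye swap, so dye bias is shared by all arrays. Spot intensities were read and flagged by Feature Extraction 9.5.3.1 per the file headers. The log10 ratio in the same files is background-subtracted and dye-normalized by Feature Extraction per the file headers and served as an alternative. The authors' deposited series table holds log2 ratios, whose normalization was not given in the sources used here, and was another alternative.

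From the intensities, background was corrected with normexp (offset 50) and arrays were normalized by loess within each array, with control and outlier spots at weight 0. The offset compresses differences of dim genes. Left out were 7 spots far below background and 105 to 423 outlier spots per array. Spots were averaged to 41174 probes, named by accession, symbol or synonym through RefSeq or by the file's own name, and each gene took its brightest heart probe. Genes well above background on at least 3 arrays were tested (14567) with limma 3.58.1 in R 4.3.3 on all 20 arrays, with 6 group means, a trended eBayes fit and Benjamini-Hochberg adjustment over all tested genes, in 11 comparisons, at a threshold of 0.05. Errors are limma's SE, and precision is limited by how many arrays there were. The fit was tested on simulated data first. Hearts are labelled biological replicates. Slides were taken as the 5 sets of 4 arrays that share a scan time; for the 4 arrays of replicate 1 on one of them, a header field names another slide, so that assignment, and the within-slide values and slide block that use it, carry some doubt.

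The members, lists and tests were chosen with earlier results of these data known. Genes described in full were the up to 14 members with the smallest adjusted p in any comparison, plus textbook members and Trim63; other members are given by ranges and counts or were chosen after their values were seen. The series note gives fewer replicates than the labels and a range of weeks as age. Replicate numbers were checked for pairing across groups: 12 of 28 same-numbered pairs had correlated deviations over 0.1 (-0.531 to 0.452), so they were not treated as pairs. Alternatives covered the background fit, normalization, dim-probe filter, choice of probe, slide or replicate number as a block, array weights, and arrays left out.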

Additional observations from a re-analysis of the deposited data

Results flagged for a closer look

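In the 4-array groups, 5 of the 92 sets of values examined held 1 array far from the other 3, by Dixon's test at the 95% level, where chance alone gives about 1 in 20. MuRF1 -/- 3-week replicate 4 was high for 4 genes of collagen and its assembly. Its Col1a1 level was -4.39 where the other 3 lay between -5.69 and -5.60, and Col1a2 was -3.70 where they lay between -4.22 and -4.19. Col18a1, the basement membrane collagen that holds endostatin, was -2.68 on it against -3.35 to -3.25, and the chaperone Serpinh1 was 0.11 against -1.27 to -1.18. Atrial markers were highest on the same array (0.51), and their part in these values was not tested. MuRF1 -/- 3-week replicate 3 was low for Col14a1, at -2.40 where the others lay between -2.09 and -2.04.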

How the results depend on the processing

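Of the 62 calls, 26 held under all 12 alternatives and every left-out array, 32 under every left-out array and 31 under every alternative, and 0 reversed. For 18 of the 62 another probe of the gene was measured. That probe had the same sign in 12 and was called in the same direction in 1. The number of members called at 8 weeks against chow in MuRF1 +/+ (8) was 4 on the authors' table, 19 with array weights and 0 with only the compared groups. The same count in MuRF1 -/- (0) was 2 on the Agilent log ratio, 2 on the authors' table, 5 without the 2 arrays that stood apart, 12 with array weights and 6 with only the compared groups. At 3 weeks it was 22, 27 and 25 in MuRF1 +/+ (12) without the 2 arrays, with array weights and with only the compared groups, and 8 in MuRF1 -/- (14) with all spots in the background fit. For 8 against 3 weeks in MuRF1 +/+ (9) it was 16 with array weights and 2 with only the compared groups. The genotype counts (0 each) became 1 on chow with array weights, 1 and 1 at 3 weeks without the 2 arrays and with array weights, and at 8 weeks 1 on the Agilent log ratio, 1 without the 2 arrays and 18 with array weights. The difference of the 8-week responses (0) gave 21 with array weights. The cause of these shifts was not tested. The share of all tested genes called is not given for these settings or for arrays left out. These counts therefore cannot show whether the members shifted more than other genes. With single arrays left out, the counts ran from 0 to 0 at 8 weeks, 8 to 15 at 3 weeks and 15 to 21 for 8 against 3 weeks in MuRF1 -/-, from 2 to 24, 8 to 12 and 6 to 9 in MuRF1 +/+, from 0 to 23 for genotype at 8 weeks, from 0 to 17 for the 8-week responses, and stayed 0 elsewhere. The extremes came from MuRF1 +/+ 8-week replicate 1 (24, 23 and 17), MuRF1 +/+ chow replicate 3 (2) and MuRF1 -/- chow replicate 3 (8). With the replicate number as a block the counts were 0 in MuRF1 -/- and 10 in MuRF1 +/+ at 8 weeks, 13 and 11 at 3 weeks, 19 and 11 for 8 against 3 weeks, and 0 in the other comparisons. Dim probes limit the sizes given for Tgfb1, Mfap5, Col5a2, Lox and Thbs1.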
